A study of Bos taurus with 6 samples.

Results

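The genes of the ATP-dependent chromatin remodellers were taken from the deposited expression table by their symbols: SMARCA to SMARCE, ARID, CHD and BAZ genes with a number, INO80 genes, ACTL6 genes, PBRM1, BRD7, BRD9, RUVBL1, RUVBL2 and MTA1 to MTA3. This pattern matched 53 of the 36075 genes listed. The values are TPM (transcripts per 1000000, a read measure scaled for gene length and for library size) from bovine blastocysts produced in vitro from slaughterhouse ovaries. In the MT-treated group the oocytes were matured for 22 h with 1e-07 mol/L melatonin (MT), and in the control group for the same time without it. Both groups were then fertilized and cultured alike. Each group had 3 libraries, and each library was made from a pool of 3 blastocysts, so a value is a mean over embryos and over the cell types of a blastocyst. The 3 libraries of a group came from 3 independent production runs, and the oocytes of a run were divided over the treatments. The treatment ended days before the RNA was collected, and the labels give neither embryo sex nor sire. The comparison asks how far the RNA of the remodelling machinery differed between blastocysts from MT-treated and from control oocytes.

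Chromatin remodellers are protein machines that use ATP to slide, evict or exchange nucleosomes, the histone spools on which DNA is wound. Each machine is built around a catalytic ATPase of the Snf2 type, and the families are named after it: SWI/SNF (SMARCA2 or SMARCA4), ISWI (SMARCA1 or SMARCA5), CHD (CHD1 to CHD9) and INO80. The partner subunits choose where and on which histone marks the machine acts, and many places in a complex can be filled by one of several paralogs. In early embryos these complexes are known for opening the genome at its activation and for the separation of inner cell mass and trophectoderm, and loss of SMARCA4 stops mouse development around implantation.

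Of the 53 genes, 46 had at least 1 TPM in at least 3 libraries and were tested. ACTL6B, ARID3C, CHD5, CHD9NB and SMARCA1 were listed at 0 in all 6 libraries. CHD9NB is a neighbour of CHD9 that the symbol pattern caught, and it is not a remodeller. ARID5A (at most 0.05 TPM) and SMARCC2 (at most 0.69 TPM) were detected below the level for testing. The ARID3, ARID4 and ARID5 proteins bind DNA but belong to no remodelling complex, and they are described apart.

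The whole libraries of the groups stood far apart. A control library had 8854 to 8953 genes above 0 and an MT-treated library 14372 to 14408, and across the tested genes the Pearson correlation of log2(TPM + 1) was 0.991 to 0.999 within a group and 0.544 to 0.546 between groups. Blastocyst identity was visible in the trophectoderm keratins KRT8 and KRT18, at 6756 to 8828 TPM and 2726 to 3694 TPM, and in POU5F1 at 188 to 194 TPM in all 6. Of the trophectoderm markers listed, 8 of 9 reached 1 TPM in control and 9 of 9 in MT-treated libraries, of the inner cell mass markers 3 and 4 of 5, and of the hypoblast markers 1 and 3 of 5. NANOG, CDX2 and PDGFRA, which mark these lineages, were listed at 0 in every control library, as were widely expressed genes such as SMARCA4 and CHD1, so a value of 0 is given below only as a listing. The markers differed in both directions: SOX2 was at most 0.02 TPM in control and 5.88 to 6.95 TPM in MT-treated libraries, whereas KLF17 was at 42.7 to 46.2 TPM against 5.18 to 5.83 TPM and LIN28B at 1.02 to 1.32 TPM against 0.34 to 0.49 TPM. Summed levels were 232 to 239 TPM in control and 211 to 216 TPM in MT-treated libraries for the inner cell mass list, 11570 to 11910 TPM and 10900 to 11260 TPM for the trophectoderm list, and 205 to 208 TPM and 514 to 517 TPM for the hypoblast list. The labels name the same kit, tools and build for all 6 libraries, but a difference between the groups in library preparation or processing cannot be told apart from one of treatment. Of 9 cumulus and granulosa markers, 8 were listed at 0 in control and 5 in MT-treated libraries, and FSHR was the only one to reach 1 TPM, at 15.0 to 19.2 TPM. Of 10 maternal oocyte markers, OOEP alone reached 1 TPM, at 45.6 to 49.3 TPM in control and 20.5 to 22.5 TPM in MT-treated libraries. The part of these differences in the values of the remodeller genes was not tested, and in pools of whole embryos fewer cells of a type and less RNA per cell cannot be told apart.

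Nearly the whole table differed between the groups, and the remodeller genes differed with it. At an adjusted p-value under 0.05 (limma on log2(TPM + 1), Benjamini-Hochberg adjustment over all 11953 genes tested), 33 of the 46 tested genes (71.7%) were higher in MT-treated blastocysts, where 61.6% of all tested genes were, and 13 (28.3%) were lower, where 34.1% were. When a 2-fold change on this scale was also required, 25 (54.3%) were higher against 51.0% of all tested genes, and 9 (19.6%) were lower against 19.6%. The 3 values of a group did not overlap those of the other group for any of the 46 genes, as for 96.1% of all tested genes. Listing at 0 in all control libraries was found for 8 of the 46 genes (17.4%) and for 33.8% of all tested genes, and listing at 0 in all MT-treated libraries for CHD3 alone (2.17%) and for 3.01% of all tested genes. A gene at 0 in all control libraries could enter the test only through the MT-treated group, and so only as higher. The shares called higher, of the remodeller genes and of all tested genes, both include such genes. Over the 34 genes above 0 in all 6 libraries the median log2 fold change was 0.70, and over the 6925 such genes of the table it was -0.19. It was 0.21 over 38 such genes of the same complexes that the symbol pattern does not catch. The 34 genes include some near the floor in control, such as SMARCC1 at 0.04 to 0.05 TPM. With 3 libraries a group, a two-sided exact permutation test on 1 gene cannot go below p = 0.1, so the calls rest on the spread that limma shares across genes. Genes under 1 TPM throughout 1 group, such as ARID1B, ARID5B, CHD2, CHD7, SMARCAL1 and SMARCC1, passed the filter only through the other group. Their adjusted p-values are given below as output of the fit and not as support for a difference. Because a fold change is taken on log2(TPM + 1), it understates the change of genes with few TPM.

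**Figure D1:**
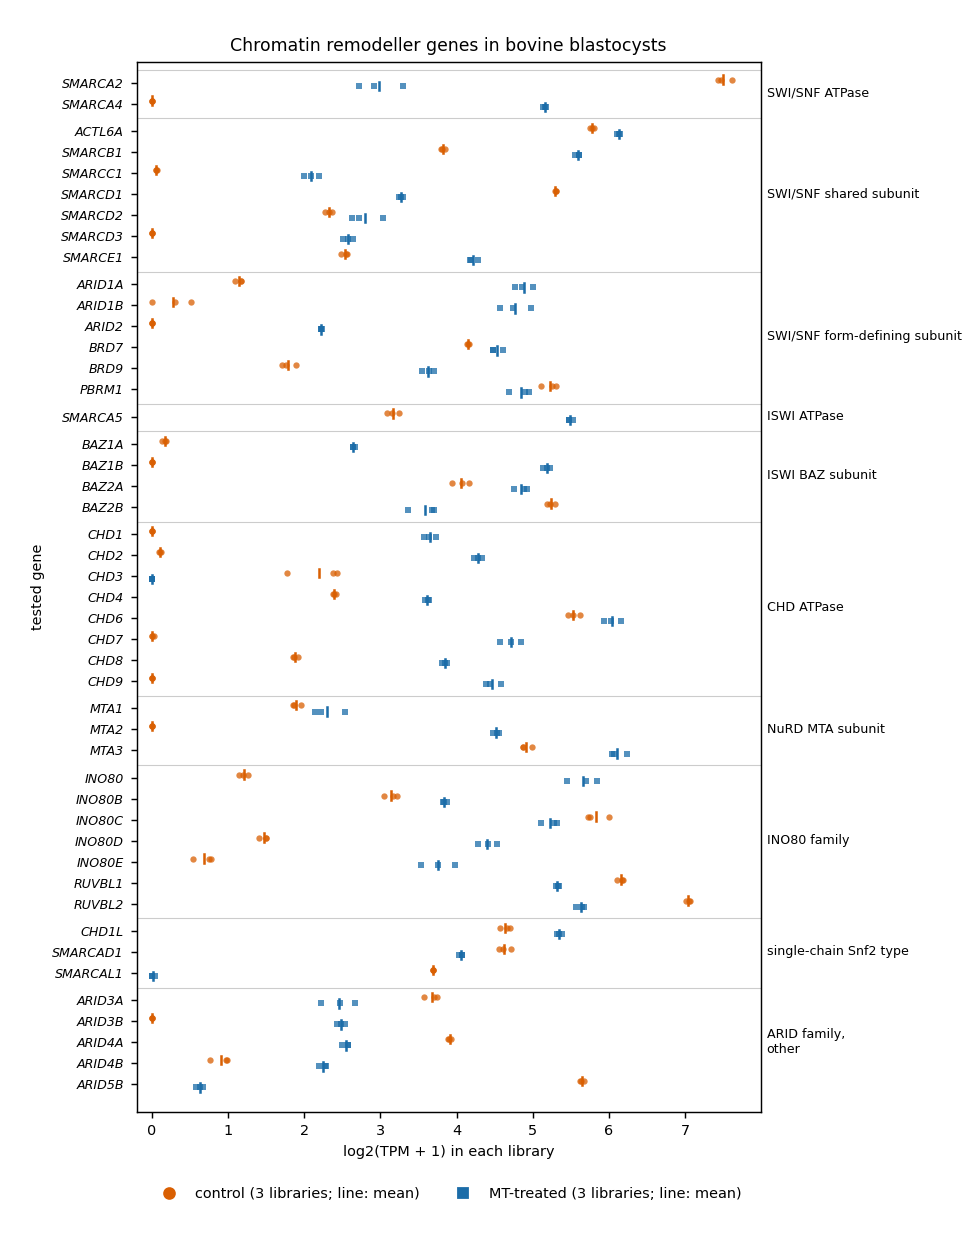
Level of each of the 46 tested genes, as log2(TPM + 1) on the x axis, in the 3 control libraries (circles) and the 3 MT-treated libraries (squares), with a line at each group's mean, ordered by complex. The libraries of a group sit close together and the groups do not overlap for any gene; SMARCA2 moves from 181 to 6.99 TPM and SMARCA4 from 0 to 34.7 TPM.

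The SWI/SNF ATPase gene with the higher listed TPM was SMARCA2 in control and SMARCA4 in MT-treated blastocysts. SMARCA2 (ENSBTAG00000007494), which encodes the ATPase BRM, had 176, 194 and 171 TPM in control pools, against 5.56, 6.53 and 8.87 TPM in MT-treated pools. Every control library was far above every MT-treated library, and the means of 181 ± 11.9 and 6.99 ± 1.70 TPM (SD, n = 3 each) differed 25.9-fold (log2 fold change -4.53, standard error 0.15, adjusted p = 2.84e-07 by limma). SMARCA4 (ENSBTAG00000019220), which encodes the alternative ATPase BRG1, was listed at 0 in each control pool and at 34.2, 35.2 and 34.6 TPM in MT-treated pools. A SWI/SNF complex holds either of these ATPases. With SMARCA4 listed at 0, which is not a measured absence, the share of SMARCA2 in their summed TPM was 100% in every control library, and it was 14.0%, 15.7% and 20.4% in the MT-treated libraries. The sum itself was lower in MT-treated blastocysts, at 41.6 ± 1.87 TPM against 181 ± 11.9 TPM (SD, n = 3 each), a 4.34-fold difference.

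The shared subunits of SWI/SNF, which form the body of the complex around the ATPase, numbered 7 tested genes, of which 6 were higher in MT-treated blastocysts, where 61.6% of all tested genes were, and 1 was lower. Under quantile normalization 4 were higher and 3 were lower. SMARCB1, the subunit that contacts the nucleosome surface and is lost in rhabdoid tumours, had 13.1, 13.4 and 12.9 TPM in control pools, against 47.8, 45.9 and 47.9 TPM in MT-treated pools, a 3.6-fold rise (log2 fold change 1.77, standard error 0.03, adjusted p = 9.85e-09 by limma). SMARCE1, an HMG-domain subunit, rose 3.66-fold from 4.80 ± 0.168 to 17.6 ± 0.739 TPM (SD, n = 3 each). ACTL6A, an actin-related subunit of SWI/SNF and INO80 complexes, rose only 1.28-fold, from 53.9 ± 0.870 to 68.9 ± 1.08 TPM (SD, n = 3 each), and its 2 groups still did not overlap. SMARCD1 was the gene that fell, from 38.4, 38.1 and 38.4 TPM in the control libraries to 8.68, 8.80 and 8.45 TPM in MT-treated pools, a 4.43-fold difference (log2 fold change -2.03, standard error 0.03, adjusted p = 3.97e-09 by limma). Its paralogs moved the other way on the deposited scale. SMARCD3 was listed at 0 in each control pool and at 4.72, 5.21 and 4.97 TPM in MT-treated pools. Its log2 fold change of 2.58 shrank to 0.18 under quantile normalization. SMARCD2 went from 4.01 ± 0.165 to 5.98 ± 1.05 TPM (SD, n = 3 each), a rise that turned into a fall under quantile normalization. The SMARCD genes together had 42.3 ± 0.0635 TPM in control and 19.6 ± 1.39 TPM in MT-treated blastocysts (SD, n = 3 each).

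The scaffold subunits SMARCC1 and SMARCC2, on which the complex is assembled, were low in both groups. SMARCC1 had 0.04, 0.05 and 0.04 TPM in control pools, against 3.00, 3.57 and 3.26 TPM in MT-treated pools (adjusted p = 7.75e-08 by limma), a direction that turned under quantile normalization. SMARCC2 had 0.68, 0.62 and 0.69 TPM in control pools, against 0.07, 0.08 and 0.09 TPM in MT-treated pools, and it was not tested. The pair summed to 0.707 ± 0.0321 TPM in control and 3.36 ± 0.290 TPM in MT-treated blastocysts (SD, n = 3 each), against 115 and 157 TPM for all 9 shared subunits.

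The subunits that distinguish the forms of SWI/SNF moved by unequal amounts. ARID1A and ARID1B, the alternative AT-rich interaction subunits of the canonical BAF form, were near the floor in control and abundant in MT-treated blastocysts. ARID1A had 1.25, 1.14 and 1.26 TPM in control pools, against 26.3, 28.0 and 31.2 TPM in MT-treated pools (log2 fold change 3.73, standard error 0.07, adjusted p = 1.49e-08 by limma). ARID1B had 0.43, 0 and 0.24 TPM in control pools, against 25.8, 22.7 and 30.5 TPM in MT-treated pools (log2 fold change 4.49, standard error 0.16, adjusted p = 4.04e-07 by limma). Their sum was 1.44 ± 0.275 TPM in control and 54.9 ± 5.99 TPM in MT-treated blastocysts (SD, n = 3 each), a 38.1-fold difference.

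The genes of the polybromo form, PBAF, differed among themselves. PBRM1, its bromodomain scaffold, had 33.4, 37.2 and 38.5 TPM in control pools, against 28.9, 24.7 and 30.04 TPM in MT-treated pools (log2 fold change -0.38, standard error 0.09, adjusted p = 0.00627 by limma). This fall was not called under quantile normalization and became a rise of 0.10, not called, after median centring. BRD7 rose from a mean of 16.7 ± 0.121 TPM to 22.1 ± 1.25 TPM (SD, n = 3 each), a call lost under quantile normalization (adjusted p = 0.0721 by limma). ARID2 was listed at 0 in each control pool and at 3.67, 3.70 and 3.67 TPM in MT-treated pools, a call lost under quantile normalization (adjusted p = 0.952 by limma). PHF10, a further PBAF subunit whose symbol the pattern does not catch, was listed at 0 in each control pool and at 24.04, 24.7 and 26.6 TPM in MT-treated pools. PBRM1, BRD7 and ARID2 together had 53.1 ± 2.62 TPM in control and 53.6 ± 3.43 TPM in MT-treated blastocysts (SD, n = 3 each), a difference smaller than the spread within either group. BRD9, which marks the non-canonical form, went from 2.46 ± 0.237 to 11.4 ± 0.675 TPM (SD, n = 3 each), a direction that turned under quantile normalization.

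In the ISWI family, which spaces nucleosomes evenly, SMARCA5 was the ATPase gene with values above 0. SMARCA5 (ENSBTAG00000003399), or SNF2H, had 7.90, 8.49 and 7.52 TPM in control pools, against 43.6, 45.2 and 43.4 TPM in MT-treated pools, a 5.52-fold rise (log2 fold change 2.33, standard error 0.05, adjusted p = 2.34e-08 by limma). Its paralog SMARCA1 was listed at 0 throughout. Of the BAZ subunits, which pair with these ATPases, 3 were higher and 1 was lower, beside 61.6% and 34.1% of all tested genes, and under quantile normalization 2 were higher and 2 were lower. BAZ1B, a subunit of the WICH complex at replication sites, was listed at 0 in each control pool and at 34.1, 35.4 and 36.5 TPM in MT-treated pools. BAZ1A, the large subunit of ACF and CHRAC, went from 0.123 ± 0.0208 to 5.27 ± 0.0896 TPM (SD, n = 3 each), a direction that turned under quantile normalization. BAZ2B fell 3.32-fold, with 35.4, 38.0 and 36.5 TPM in control pools, against 9.30, 11.7 and 12.1 TPM in MT-treated pools (log2 fold change -1.65, standard error 0.10, adjusted p = 5.21e-06 by limma). BAZ2A, a subunit of the nucleolar complex NoRC that silences ribosomal DNA, rose from 15.7 ± 1.33 to 27.9 ± 1.79 TPM (SD, n = 3 each), so that the BAZ2 paralogs changed places as the more abundant gene.

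Among the chromodomain helicases 7 of 8 tested genes were higher and 1 was lower, beside 61.6% and 34.1% of all tested genes, and under quantile normalization 5 were higher and 2 were lower. CHD1 to CHD9 together had 56.0 ± 2.79 TPM in control and 166 ± 5.13 TPM in MT-treated blastocysts (SD, n = 3 each). In the control libraries CHD6 carried most of this sum, with 43.1, 44.9 and 48.0 TPM, and it reached 64.2, 70.3 and 60.3 TPM in MT-treated pools (log2 fold change 0.51, standard error 0.07, adjusted p = 0.000381 by limma). The other genes of its subfamily were listed at 0 or at most 2.79 TPM in control pools. CHD7, the gene mutated in CHARGE syndrome, had 0.02, 0 and 0 TPM in control pools, against 27.9, 22.8 and 25.2 TPM in MT-treated pools (adjusted p = 7.25e-09 by limma). CHD9 was listed at 0 in each control pool and at 19.9, 23.1 and 20.7 TPM in MT-treated pools. CHD8, a binding partner of beta-catenin, had 2.79, 2.60 and 2.64 TPM in control pools, against 13.4, 13.0 and 13.7 TPM in MT-treated pools, a 4.99-fold rise that was absent under quantile normalization (log2 fold change -0.019, not called).

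CHD1 and CHD2, which bind histone H3 methylated at lysine 4 or travel with elongating polymerase, followed the same pattern. CHD1 was listed at 0 in each control pool and at 11.5, 12.3 and 10.9 TPM in MT-treated pools. CHD2 had 0.09, 0.08 and 0.07 TPM in control pools, against 17.7, 18.5 and 19.2 TPM in MT-treated pools (log2 fold change 4.17, standard error 0.04, adjusted p = 1.16e-09 by limma). In MT-treated pools CHD1, CHD2, CHD7 and CHD9 lay between 10.9 and 27.9 TPM.

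CHD3, CHD4 and CHD5 are the alternative ATPases of NuRD, which joins remodelling to histone deacetylation. CHD3 was the chromodomain gene that fell, from 4.39, 2.41 and 4.19 TPM in the control libraries to a listing of 0 in each MT-treated library. CHD4 had 4.25, 4.18 and 4.34 TPM in control pools, against 11.0, 11.4 and 11.3 TPM in MT-treated pools, a 2.64-fold rise (adjusted p = 8.93e-08 by limma) that became a fall of 1.11 on the log2 scale under quantile normalization. CHD5 was listed at 0 throughout. CHD3 made up 36.6% to 50.8% of the CHD3 and CHD4 sum in the control libraries and 0% in the MT-treated libraries.

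The MTA genes, which encode the scaffold that holds the histone deacetylases in NuRD, were higher on the deposited scale in 3 of 3 cases, beside 61.6% of all tested genes, and under quantile normalization 2 were higher and 1 was lower. MTA3 was the most abundant in every library, with 28.2, 30.8 and 28.3 TPM in control and 64.6, 65.9 and 74.3 TPM in MT-treated libraries, a 2.35-fold rise (log2 fold change 1.2, standard error 0.06, adjusted p = 3.08e-06 by limma). MTA2 was listed at 0 in each control pool and at 21.3, 22.03 and 22.5 TPM in MT-treated pools. MTA1 had 2.64, 2.60 and 2.90 TPM in control pools, against 3.65, 4.81 and 3.41 TPM in MT-treated pools (adjusted p = 0.0114 by limma), and under quantile normalization it was called in the other direction. The MTA genes together rose 2.96-fold, from 31.8 ± 1.35 to 94.1 ± 5.42 TPM (SD, n = 3 each).

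The INO80 complex, which moves and edits nucleosomes that carry the variant H2A.Z, showed a rise of its ATPase beside a fall of its helicases. INO80 (ENSBTAG00000010380) had 1.4, 1.22 and 1.3 TPM in control pools, against 50.7, 56.7 and 42.9 TPM in MT-treated pools, a 38.3-fold rise (log2 fold change 4.46, standard error 0.10, adjusted p = 4.45e-08 by limma). RUVBL1 and RUVBL2 encode the AAA+ ATPases that form a ring in the INO80, SRCAP and TIP60 complexes. RUVBL2 had 131, 129 and 132 TPM in control pools, against 49.2, 46.6 and 49.9 TPM in MT-treated pools, a 2.69-fold fall (log2 fold change -1.41, standard error 0.03, adjusted p = 3.7e-08 by limma). RUVBL1 fell 1.79-fold, from 71.6, 67.9 and 70.9 TPM to 39.1, 38.5 and 39.6 TPM. The helicase pair thus exceeded the ATPase in both groups, at 201 ± 3.76 TPM in control and 87.6 ± 2.27 TPM in MT-treated blastocysts (SD, n = 3 each).

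The other INO80 subunits were split. INO80D rose from a mean of 1.78 ± 0.101 TPM to 20.3 ± 1.81 TPM (SD, n = 3 each), and INO80E from 0.620 ± 0.148 to 12.7 ± 2.09 TPM (SD, n = 3 each), the latter not called under quantile normalization (adjusted p = 0.309 by limma). INO80B rose from a mean of 7.86 ± 0.530 TPM to 13.3 ± 0.251 TPM (SD, n = 3 each) and was called lower under quantile normalization. INO80C fell from a mean of 55.9 ± 6.08 TPM to 36.7 ± 2.81 TPM (SD, n = 3 each), a call lost after median centring (adjusted p = 0.247 by limma). INO80C was one of the noisier genes in control, with 52.9, 52.0 and 62.9 TPM, and all of these values lay above the highest MT-treated value of 38.7 TPM.

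Of the Snf2-type ATPases that act outside the large complexes, SMARCAL1 showed the largest fall. SMARCAL1, which anneals single-stranded DNA at stalled replication forks, had 11.9 TPM in each control library and 0.03, 0 and 0 TPM in MT-treated pools (log2 fold change -3.67, standard error 0.03, adjusted p = 7.82e-10 by limma). SMARCAD1, which keeps heterochromatin silent through replication, had 25.3, 22.5 and 23.4 TPM in control pools, against 15.8, 15.4 and 15.8 TPM in MT-treated pools, a fall that was not called after median centring (adjusted p = 0.1 by limma). CHD1L, a remodeller recruited by poly(ADP-ribose) at DNA breaks, rose from 24.9, 22.7 and 24.4 TPM to 38.9, 39.6 and 40.9 TPM (adjusted p = 6.31e-06 by limma).

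Over the 17 catalytic ATPases of the Snf2 type, 15 were tested, of which 11 rose and 4 fell, beside 61.6% and 34.1% of all tested genes. Their summed level was 306 ± 8.41 TPM in control and 357 ± 11.5 TPM in MT-treated blastocysts (SD, n = 3 each), a ratio of 1.17. The sums of the groups did not overlap, at 299 to 315 TPM and 348 to 370 TPM. Without SMARCA2, the ATPase gene with the largest fall in TPM, the sums were 125 ± 3.52 and 350.2 ± 12.4 TPM (SD, n = 3 each). The ratio was then 2.80, which leaving out a falling gene raises by construction. All 53 genes together summed to 904 ± 10.2 TPM in control and 996 ± 15.2 TPM in MT-treated blastocysts (SD, n = 3 each).

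The ARID proteins outside the remodellers included the largest fall of all 46 genes on the log2(TPM + 1) scale of the deposited values, that of ARID5B. Under quantile normalization SMARCA2 fell further, with a log2 fold change of -5.90 against -5.18. ARID5B, a DNA-binding cofactor of a histone demethylase, had 48.8, 50.04 and 48.3 TPM in control pools, against 0.50, 0.55 and 0.59 TPM in MT-treated pools, an 89.7-fold difference (log2 fold change -5.02, standard error 0.04, adjusted p = 6.18e-10 by limma). ARID3A fell from 11.8 ± 0.737 to 4.53 ± 0.835 TPM and ARID4A from 14.0 ± 0.202 to 4.86 ± 0.176 TPM (SD, n = 3 each). ARID3B was listed at 0 in each control pool and at 4.78, 4.39 and 4.59 TPM in MT-treated pools. Its log2 fold change of 2.48 shrank to 0.13 under quantile normalization. ARID4B, which like ARID4A is a subunit of the SIN3 deacetylase complex, rose from a mean of 0.883 ± 0.159 TPM to 3.76 ± 0.149 TPM (SD, n = 3 each) and was called lower under quantile normalization. Without these genes, 31 of 41 tested genes were higher and 10 were lower on the deposited scale, beside 61.6% and 34.1% of all tested genes. Under quantile normalization all 46 genes gave 21 higher and 20 lower, of which the ARID genes of this paragraph gave 1 and 4.

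Paralogs were next compared within each library, because the share of a gene in the summed TPM of a pair does not move when a whole library is multiplied by 1 factor. It can move under quantile normalization, which moved 12 of the 18 pair shares compared by more than the spread between libraries and turned 2 others, BRD7 with BRD9 and CHD1 with CHD2. Of 23 pairs, 22 had a value in every library, and for 19 of them the shares of the groups did not overlap (exact permutation test, two-sided, p = 0.1 for each, the smallest this design allows, and 0.116 after Benjamini-Hochberg adjustment over 22 pairs). For 6 pairs the more abundant paralog was another gene in all libraries of one group than in all libraries of the other. These were SMARCA2 and SMARCA4, SMARCC2 and SMARCC1, BAZ1A and BAZ1B, BAZ2B and BAZ2A, CHD8 and CHD9, and MTA1 and MTA2, each with the more abundant gene in control named first. The control order rested on few TPM for BAZ1A, at 0.10 to 0.14 TPM, and for the SMARCC pair, which summed to 0.67 to 0.73 TPM. In 4 of the 6 pairs the gene that prevailed in MT-treated blastocysts was listed at 0 in each control library, so their control shares rest on that listing. The remaining pairs rested on values above 0 in both groups: BAZ2A took 29.9 ± 1.05% of its pair in control and 71.7 ± 1.59% in MT-treated blastocysts, and the share of SMARCC1 was 6.17 ± 1.12% and 97.6 ± 0.264% (SD, n = 3 each).

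Other pairs shifted without a change of the leading gene. SMARCD1 supplied 90.5 ± 0.390% of the SMARCD1 and SMARCD2 sum in control and 59.3 ± 3.80% in MT-treated blastocysts (SD, n = 3 each). ARID4A supplied 94.1 ± 0.954% of its pair with ARID4B in control and 56.4 ± 1.54% in MT-treated blastocysts (SD, n = 3 each). The RUVBL pair, whose products work together in a ring, moved less, with RUVBL1 at 34.9 ± 0.355% and 44.6 ± 0.572% (SD, n = 3 each). ARID1A and ARID1B were nearly equal in MT-treated blastocysts, where ARID1A had 50.4% to 55.2% of the sum, while the control shares of 74.4% to 100% rest on a sum of only 1.14 to 1.68 TPM.

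**Figure D2:**
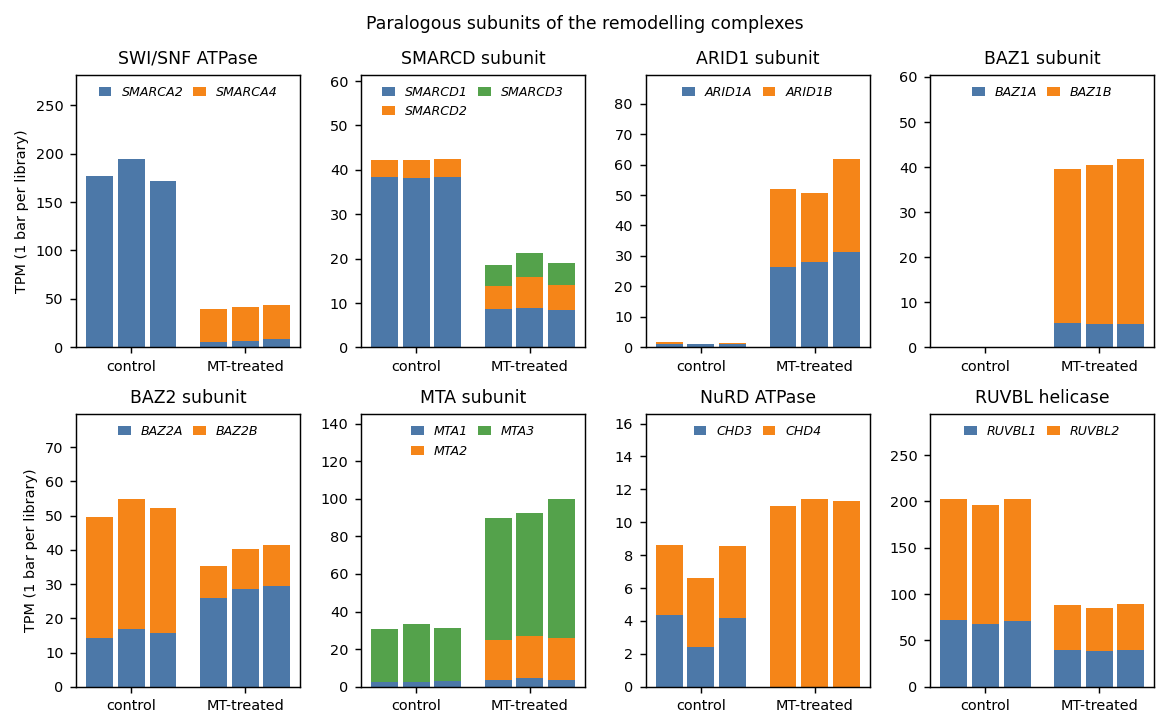
TPM (y axis, from 0, with its own range in each panel) of paralogous subunits, stacked in 1 bar per library, with the 3 control bars on the left and the 3 MT-treated bars on the right of each panel. SMARCA2 fills the control bars of the SWI/SNF ATPase and SMARCA4 most of the MT-treated bars, and the ARID1 and BAZ1 bars are close to 0 in control.

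The order of the genes by level also differed. Across the 46 tested genes the Spearman correlation of TPM was 0.990 to 0.998 for the 6 pairs of libraries of one group and 0.233 to 0.267 for the 9 pairs of libraries of different groups, as a description across genes that share their libraries. In control the order was led by SMARCA2, RUVBL2, RUVBL1, INO80C and ACTL6A. In MT-treated blastocysts it was led by ACTL6A, MTA3, CHD6, INO80 and RUVBL2, of which ACTL6A at 68.9 ± 1.08, MTA3 at 68.3 ± 5.24 and CHD6 at 64.9 ± 5.04 TPM (SD, n = 3 each) did not differ beyond their spread. SMARCA2 went from rank 1 to rank 33 and ARID5B from rank 6 to rank 44, while INO80 went from rank 30 to rank 4. The median coefficient of variation between libraries was 4.93% over 21 genes with at least 5 TPM in all control libraries and 5.67% over 35 such genes in MT-treated libraries.

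The direction of some differences depended on how the libraries were scaled. The large differences of BAZ1A and SMARCC1, which had at most 0.14 TPM in control, turned under quantile normalization. They kept their direction after median centring and after rescaling. On the deposited scale the median log2 fold change was 1.12 over all tested genes and 1.28 over the 46 genes. Genes with at least 1 TPM in all 6 libraries were shifted by -0.48 between the groups, and centring each library on the median of these genes gave 33 higher, 10 lower and 3 genes not called. Quantile normalization, which forces all libraries onto 1 common distribution, gave 21 higher, 20 lower and 5 genes not called. Higher genes then made up 51.2% of the called remodeller genes and 51.1% of all called genes, in place of 71.7% and 64.4%. The 9 genes with a fall beyond 2-fold as deposited, SMARCA2, SMARCAL1, SMARCD1, BAZ2B, CHD3, RUVBL2, ARID3A, ARID4A and ARID5B, were also called lower after median centring, quantile normalization and rescaling of each library to a total of 1000000.

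**Figure D3:**
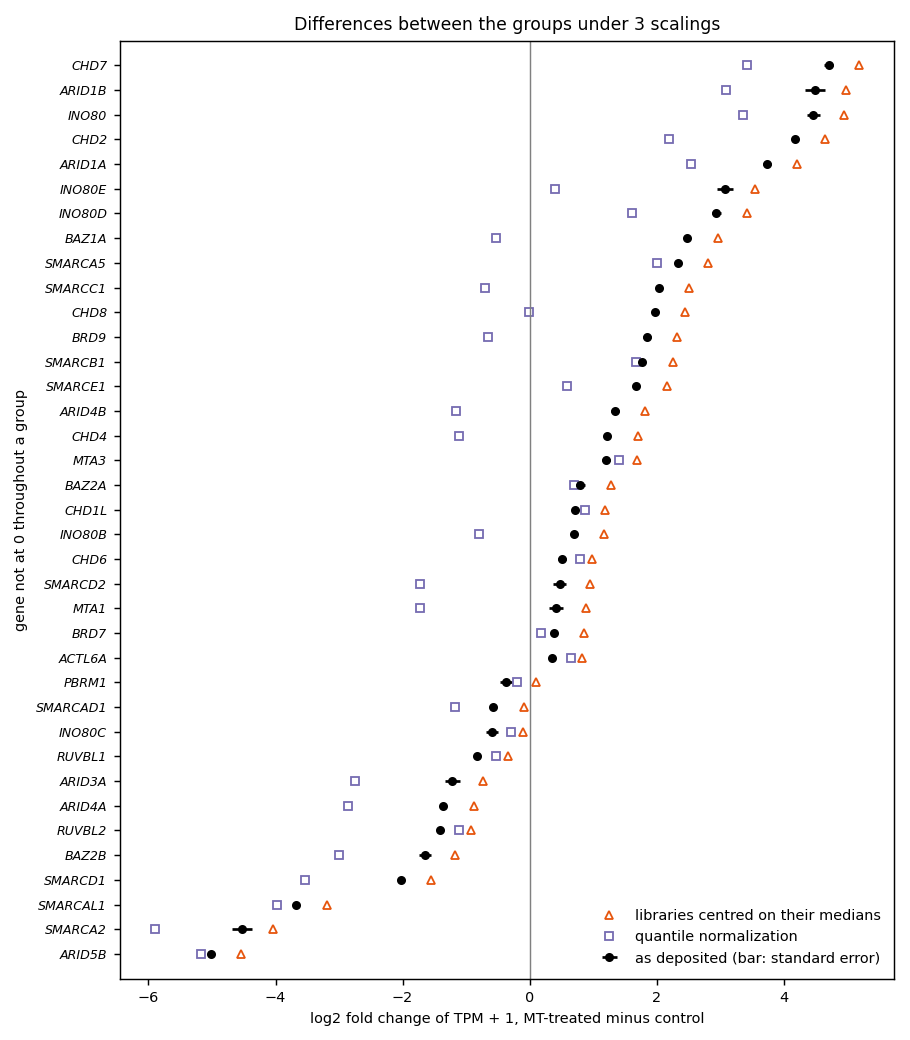
Log2 fold change of TPM + 1, MT-treated minus control, on the x axis for the 37 tested genes that are not at 0 throughout a group, as deposited (filled circles with the standard error), after median centring (triangles) and after quantile normalization (squares). The triangles lie 0.48 to the right of the circles; 9 genes with a circle right of 0, among them CHD4, BRD9 and SMARCC1, have a square left of 0.

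Subunits of the same complexes that the symbol pattern does not catch were collected in a list of 65 genes, of which 64 were in the table and 58 were tested. In MT-treated blastocysts 39 of the 58 (67.2%) were higher and 18 (31.0%) were lower, near the 61.6% and 34.1% of all tested genes, and under quantile normalization 26 were higher and 28 lower. EP400, the ATPase of the TIP60 complex, was the gene that was not called, with 1.03, 0.94 and 1.05 TPM in control and 1.05, 1.05 and 1.07 TPM in MT-treated libraries (adjusted p = 0.316 by limma), and it was the single gene whose groups overlapped. It was called lower under quantile normalization (log2 fold change -1.82) and higher after median centring (0.52). Of 10 other SWI/SNF subunits 8 were higher and 2 were lower, and under quantile normalization 6 and 3. Within the DPF family of histone readers, DPF3 was listed at 0 in each control pool and at 39.0, 36.6 and 37.4 TPM in MT-treated pools, whereas DPF1 had 24.7, 22.3 and 24.04 TPM in control and 0.04, 0 and 0 TPM in MT-treated libraries.

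The counts by complex that follow stand beside 61.6% higher and 34.1% lower over all tested genes. In NuRD 4 of 9 further genes were higher and 5 were lower, a balance that turned to 6 and 3 after median centring and to 5 and 3 under quantile normalization. GATAD2A and GATAD2B, paralogs that link the deacetylase and remodelling modules of NuRD, moved in opposite directions. GATAD2A fell 7.86-fold, from 38.7, 37.2 and 44.6 TPM to 4.84, 4.73 and 5.78 TPM (adjusted p = 3.09e-07 by limma), and GATAD2B was listed at 0 in each control pool and at 42.8, 46.4 and 40.6 TPM in MT-treated pools. The 6 further ISWI genes were all higher on the deposited scale and after median centring, but under quantile normalization 1 was higher and 5 were lower. On the log2(TPM + 1) scale the largest of these changes was in POLE3, a histone-fold subunit of CHRAC, with 1.49, 1.74 and 1.57 TPM in control pools, against 11.1, 12.2 and 11.3 TPM in MT-treated pools, and it was among those that turned. HMGXB4 had the larger ratio of TPM, from 0, 0.04 and 0.02 TPM in control pools to 2.39, 3.11 and 2.76 TPM in MT-treated pools, and it turned as well. Of 22 tested genes of the INO80, SRCAP and TIP60 complexes, 14 were higher and 7 were lower, and under quantile normalization 10 and 11. ACTR8 was listed at 0 in each control pool and at 16.6, 16.1 and 17.6 TPM in MT-treated pools, and YEATS4, a reader of acetylated histones, fell 4.06-fold, from 96.9, 105.3 and 104.7 TPM to 24.4, 24.7 and 26.6 TPM. Of 11 further Snf2-type ATPases, 7 were higher and 4 were lower, and under quantile normalization 4 and 6. SHPRH, a ubiquitin ligase of DNA damage tolerance, was listed at 0 in each control pool and at 46.2, 50.6 and 62.0 TPM in MT-treated pools, and BTAF1, which removes the TATA-binding protein from DNA, fell 13.0-fold from 34.2, 29.7 and 34.0 TPM to 2.53, 2.47 and 2.51 TPM.

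**Figure D4:**
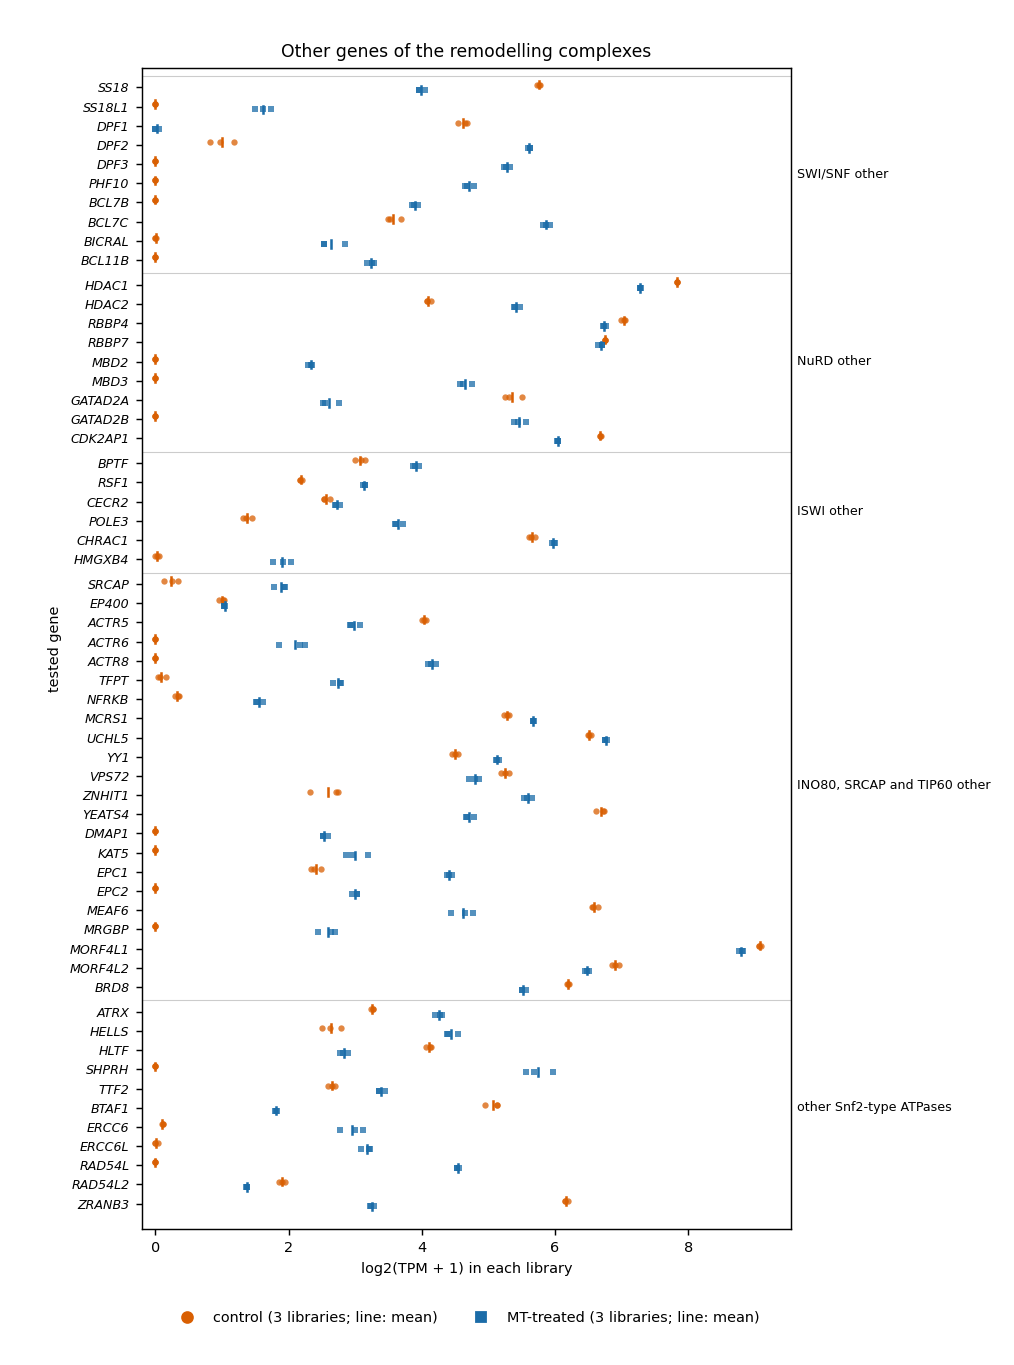
Level of each of the 58 tested genes of the same complexes outside the symbol pattern, as log2(TPM + 1) on the x axis, in the 3 control (circles) and 3 MT-treated (squares) libraries, with a line at each group's mean. DPF1, GATAD2A and BTAF1 lie to the left in MT-treated libraries, DPF3, GATAD2B and SHPRH lie at 0 in control, and only the EP400 groups overlap.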

How the data were processed

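Blastocyst RNA was measured in 6 libraries, 3 control and 3 MT-treated, grouped by their labels. Culture conditions and pool size came from the methods of the study. The authors used fastp and FastQC for quality control of the reads, aligned them with STAR and counted them with featureCounts. The submitters' processing notes name STAR 2.7.9a and genome build ARS-UCD1.2, whereas the methods name ARS-UCD1.3. The methods name Smart-seq2 and the labels a TruSeq kit, so the chemistry is uncertain, and strandedness is not given in the sources used here. The authors deposited TPM per gene, and how these were derived from counts is not given in the sources used here. TPM holds no counts, and the sequencing depth that the study tabulates was not used here, so no counting interval is given. Reads shared between overlapping genes cannot be told apart.

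Tests ran on log2(TPM + 1) for genes that reached 1 TPM in 3 or more libraries, by limma 3.58.1 (lmFit, then eBayes with a trend on mean level; R 4.3.3), with Benjamini-Hochberg adjustment over all tested genes and a threshold of 0.05. Shares of paralog pairs were compared by exact permutation tests. The fit was tested on simulated data. Pandas 2.3.3 (Python 3.11.15) made the summaries and matplotlib 3.10.9 the figures. P-values measure only the spread between these pools.

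The members, lists and pairs were chosen with earlier results of these data known. Values of every library are given for tested ATPases, for the largest rise and fall in each complex group, and for symbol-matched genes at 0 throughout a group. Of the other genes of the complexes, the largest rise and fall of each group on the log2(TPM + 1) scale and any gene not called are named. PHF10 and HMGXB4 were added after their values were seen. The fit was repeated with a minimum of 5 TPM, without the filter, with a pseudocount of 0.1, quantile normalization, median centring, rescaling to 1000000, genes above 0 in all 6 libraries, without the trend, a replicate block and leaving out each library.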

Additional observations from a re-analysis of the deposited data

How the results depend on the processing

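Of the 46 tested genes, 31 kept direction and call under every alternative that tested them, and none changed when a library was left out, with a pseudocount of 0.1, without the filter, without the trend or after rescaling. Quantile normalization moved the remodeller genes from 33 higher and 13 lower to 21 and 20, and the other genes of the complexes from 39 higher and 18 lower to 26 and 28. Under it the log2 fold change was reversed to -1.17 for ARID4B, -0.52 for BAZ1A, -0.66 for BRD9, -1.11 for CHD4, -0.019 for CHD8, -0.80 for INO80B, -1.73 for MTA1, -0.71 for SMARCC1 and -1.73 for SMARCD2. Of 18 pair shares compared it left 4 within the spread between libraries, moved 12 and reversed 2, taking the difference in share to 10.2 points for BRD7 against BRD9 and to -12.3 points for CHD1 against CHD2. By its construction, genes tied at 0 in control share an averaged value above 0. Median centring reversed PBRM1 to 0.10. Restriction to genes above 0 in all 6 libraries, which tests fewer genes, gave 23 higher and 11 lower remodeller genes in place of 33 and 13. For the other genes of the complexes it gave 20 higher and 17 lower in place of 39 and 18. Rescaling each library to 1000000 moved the difference in summed TPM of the 53 genes, MT-treated minus control, from 91.8 to 126, because the listed TPM sum to less in MT-treated libraries. With the replicate number as a replicate block, 33 genes were higher and 13 lower, and no call changed. Deviations of same-numbered libraries correlated at -0.0115, -0.000679 and 0.0588, and no source used here ties a number to a production run, so the libraries were not treated as paired, although the groups may share runs. Precision is limited by 3 libraries a group, and the depth behind a value of 0 was not used here.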
